A study of Mus musculus with 6 samples.

Results

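The 51 genes described here encode the machinery that takes a cell into mitosis, moves and compacts its chromosomes, and divides it. They are the mitotic kinase CDK1 with its cyclins and activators, Aurora A and other kinases, FoxM1, Ki-67 and topoisomerase II, the mitotic kinesin motors, spindle-associated proteins, cytokinesis factors, condensin, and the separase and anaphase-promoting complex group. They were taken by gene symbol from a table of 26969 genes, in which each of the 51 symbols occurred once. The study sequenced poly(A) RNA from chondrocytes, the cell type of cartilage, of wild-type genotype in mouse, with 6 libraries, 3 in each of 2 groups. It set chondrocytes given vehicle against chondrocytes given mitochondria, whose origin the series title gives as osteocytes, the bone-embedded cells of the skeleton. The sample labels disagree on which group is which. Samples described as mAC_Mito have titles and treatment entries of vehicle, and samples described as mAC have titles and treatment entries of mitochondria. Group names follow the description, as do the column names of the deposited table. Differences are given as mAC_Mito minus mAC throughout, and no direction is read as the action of mitochondria. The extraction protocol speaks of adipose RNA, although each sample is labelled chondrocytes. The sources used here do not give the age of the cells, their culture, the dose or timing of the mitochondria, or whether replicates came from separate cultures or animals. P-values therefore measure the spread between these libraries, which may be technical.

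A cell enters mitosis when CDK1, bound to cyclin A2 or B, is switched on by CDC25 phosphatases. Aurora A, activated by TPX2 and Bora, matures the centrosomes, kinesins slide and crosslink microtubules into a spindle, and condensin packs the chromosomes. The anaphase-promoting complex, a ubiquitin ligase that works with UBE2C, then destroys securin and the cyclins, so that separase opens the cohesin rings and cytokinesis follows. Most of these transcripts are made only in late S, G2 and M phase, under B-Myb, MuvB and FoxM1, so in bulk RNA they are read as markers of dividing cells. Adult articular chondrocytes rarely divide, whereas young or cultured chondrocytes do. In bulk samples, fewer cells of a kind and less RNA per cell cannot be told apart.

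The promoters of these genes share short elements that the choice of genes did not use. The cell cycle genes homology region, or CHR, is the site through which MuvB complexes are known to bind, and the CCAAT box is the site of the factor NF-Y. RefSeq promoters on GRCm38.p6, 250 bases before to 50 after the start, were at hand for 42 of the 51 genes, with 45 promoters in all. The following 6 are shown because they cover the central kinase, its most abundant cyclin by FPKM and a spindle motor. They also cover the spindle gene and the cytokinesis gene with the lowest unadjusted p, and a condensin gene whose groups overlapped. Of the 45 promoters 29 (64.4%) hold both a CHR element and a CCAAT box, against 7.52% of all promoters, and all 6 shown are among them. Each reads 5′ to 3′ on the strand of the gene, and capitals mark CHR elements (TTTGAA or TTCGAA) and CCAAT boxes on either strand, so that one on the other strand reads TTCAAA or ATTGG.
Cdk1, chr10:69352863-69353162, minus strand: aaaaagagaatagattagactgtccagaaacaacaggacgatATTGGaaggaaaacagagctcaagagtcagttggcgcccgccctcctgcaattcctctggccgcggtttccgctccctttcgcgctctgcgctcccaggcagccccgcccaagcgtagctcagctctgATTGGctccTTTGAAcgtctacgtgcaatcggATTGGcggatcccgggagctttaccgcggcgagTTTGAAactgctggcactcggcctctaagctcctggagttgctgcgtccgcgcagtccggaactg
Ccnb2, chr9:70421505-70421804, minus strand: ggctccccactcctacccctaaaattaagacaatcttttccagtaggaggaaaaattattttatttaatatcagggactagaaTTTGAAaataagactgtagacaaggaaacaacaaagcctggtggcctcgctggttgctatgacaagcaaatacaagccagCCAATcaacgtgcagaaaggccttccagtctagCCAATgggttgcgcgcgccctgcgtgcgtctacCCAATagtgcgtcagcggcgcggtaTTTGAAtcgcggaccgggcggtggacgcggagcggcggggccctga
Kif11, chr19:37376132-37376431, plus strand: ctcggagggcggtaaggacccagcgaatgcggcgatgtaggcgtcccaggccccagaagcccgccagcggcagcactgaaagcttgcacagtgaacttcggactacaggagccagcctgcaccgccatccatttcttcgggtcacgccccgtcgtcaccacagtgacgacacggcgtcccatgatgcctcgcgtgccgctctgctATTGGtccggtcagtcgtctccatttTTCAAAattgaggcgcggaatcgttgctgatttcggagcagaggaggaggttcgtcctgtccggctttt
Hmmr, chr11:40733388-40733687, minus strand: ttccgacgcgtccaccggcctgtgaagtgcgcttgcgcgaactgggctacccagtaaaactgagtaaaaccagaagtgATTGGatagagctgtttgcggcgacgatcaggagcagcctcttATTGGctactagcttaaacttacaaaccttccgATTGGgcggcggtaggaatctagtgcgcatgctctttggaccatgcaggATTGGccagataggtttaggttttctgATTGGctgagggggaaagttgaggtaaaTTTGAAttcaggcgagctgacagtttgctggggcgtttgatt
Ect2, chr3:27153805-27154104, minus strand: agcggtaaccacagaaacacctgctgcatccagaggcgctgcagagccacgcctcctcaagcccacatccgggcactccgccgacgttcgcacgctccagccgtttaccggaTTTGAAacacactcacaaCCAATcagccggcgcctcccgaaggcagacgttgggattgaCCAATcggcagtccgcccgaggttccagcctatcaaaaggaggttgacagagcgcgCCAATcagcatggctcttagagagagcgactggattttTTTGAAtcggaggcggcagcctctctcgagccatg
Ncapd2, chr6:125191537-125191836, minus strand: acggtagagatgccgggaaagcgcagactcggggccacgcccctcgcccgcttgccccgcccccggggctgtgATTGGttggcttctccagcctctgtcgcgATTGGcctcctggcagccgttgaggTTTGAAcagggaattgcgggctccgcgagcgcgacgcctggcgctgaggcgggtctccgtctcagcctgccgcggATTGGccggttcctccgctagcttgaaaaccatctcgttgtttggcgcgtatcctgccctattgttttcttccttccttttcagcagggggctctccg

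Counting the start as position 0, Cdk1 held CHR elements that begin at -71 and -15, Ccnb2 at -167 and 4, Kif11 at -19, Hmmr at 8, Ect2 at -138 and 15, and Ncapd2 at -123. Cdk1, Ccnb2, Ect2 and Ncapd2 each held 3 CCAAT boxes. In Ccnb2 these began at -87, -54 and -21, just upstream of the CHR element at the start. Kif11 held 1 and Hmmr 5, and the promoters of Ube2c and Top2a, which are not printed, held 6 each. In Ube2c the matches at -186 to -182 and -183 to -179, on opposite strands, overlap, so its 6 are not all separate. A CHR element lay in 35 of the 45 promoters (77.8%), against 19.2% of all 32851 RefSeq promoters of the same length. The promoters of Cep55, of Ect2 and of Prc1 overlap each other, so their shared elements are counted more than once. By gene, 32 of 42 held a CHR element (76.2%), against 21.7% of 27025 genes. Within 100 bases before the start or the 50 after it, a window set after the design was written, 31 of 45 held one (68.9%) against 8.59% of all promoters. A CCAAT box lay in 31 of 45 (68.9%) against 37.4%, and 2 or more in 20 of 45 (44.4%) against 11.7%. An E2F-type element (TTTCGCGC, TTTGGCGC or TTTCCCGC, either strand) lay in 5 of 45 (11.1%) against 1.84%. Those 5 were in Cdk1, Kif15, Kif18a, Ncapd2 and Ncapg. No match of one kind overlapped a match of another kind in these promoters. Of the 49 CHR matches, 46 were TTTGAA and 3 TTCGAA. Among genes with the lowest unadjusted p of their roles, Ccnb1 held no CHR element, Kif2c no CCAAT box and Ncaph neither. Top2a, Hmmr, Ect2 and Ube2c held both. The promoters of Melk, Plk4, Nusap1, Sapcd2, Cit, Ncaph and Pttg1 held no CHR element, CCAAT box or E2F-type element in this window. By the coordinates of the deposited table, however, Plk4, Sapcd2, Cit and Pttg1 start outside their windows. So do Kif2c, Kif14, Kif4 and Cdca3, whose windows held matches. Of the 45 RefSeq starts 15 were also starts in the GENCODE annotation, and 40 lay within 50 bases of one. A match is a description of the sequence and was not tested as a binding site.

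**Figure D1:**
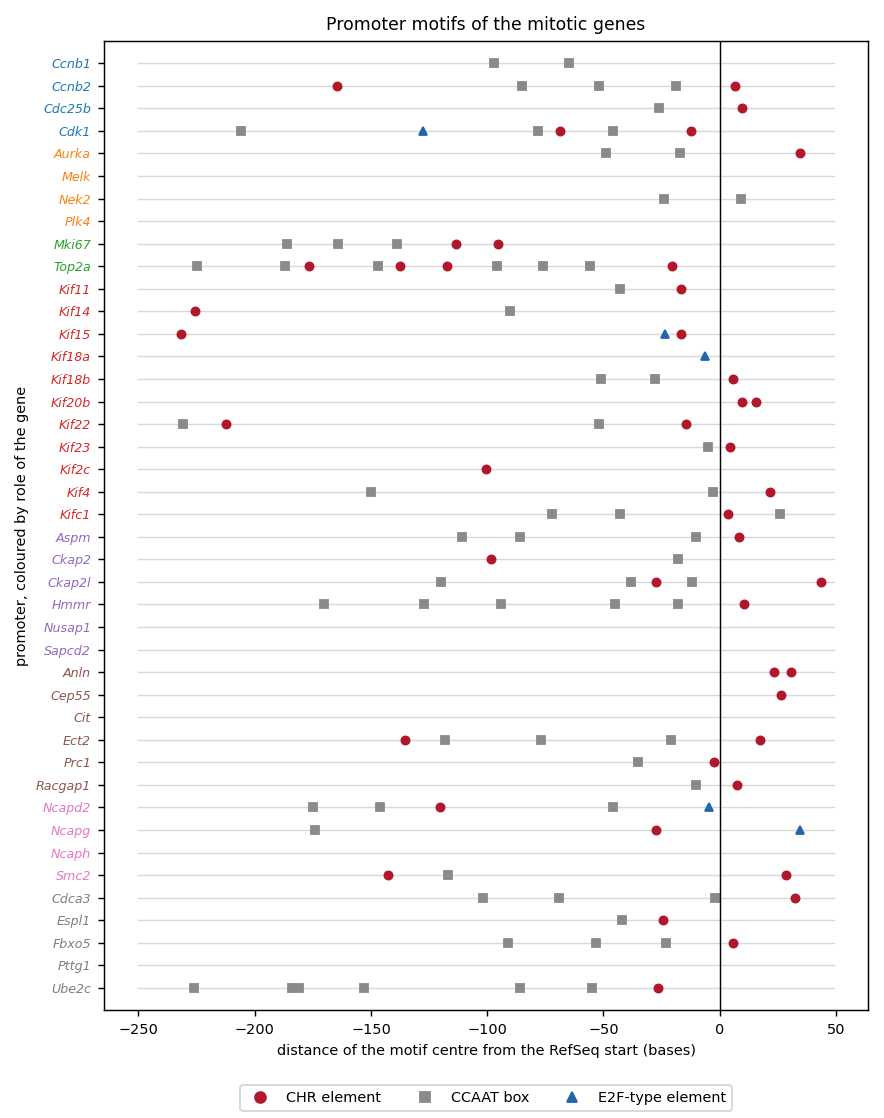
Positions of CHR elements (circles), CCAAT boxes (squares) and E2F-type elements (triangles) in the RefSeq promoters of 42 mitotic genes, as the distance in bases of the motif centre from the start (the first listed promoter where a gene has more). CHR elements gather around the start, with 33 of the 49 matches over all 45 promoters lying from 50 bases before it to 50 after it.

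Total counts ran from 59116068 to 68378213 per library, and every member had between 173 and 19229 counts in each library, so all 51 passed the filter on low counts. Of the chondrocyte markers Col2a1 was at 951 to 1662 FPKM, Sox9 at 17.7 to 25.1 FPKM and Matn1 at 2.36 to 4.37 FPKM. All 13 chondrocyte markers were detected in every library. Markers of other cells were detected too, so detection alone does not tell cell types apart at this depth. Summed over 10 macrophage and leukocyte markers the level was 66.9 to 84.95 FPKM in mAC, lowest in mAC 1, and 74.2 to 120.1 FPKM in mAC_Mito. In log2 fold change 9 of 10 were above 0, and the leukocyte antigen Ptprc was at no more than 0.0915 FPKM. The 9 skeletal muscle markers summed to 39.4 to 73.4 and 61.0 to 69.2 FPKM and the 8 adipocyte markers to 72.2 to 110.4 and 95.3 to 115.6 FPKM, in both cases lowest in mAC 1, with all 9 and all 8 above 0 in log2 fold change. The 8 endothelial markers summed to at most 0.463 FPKM and the 5 erythroid markers found to at most 0.412 FPKM. The mitochondrial genome's share of counts was 7.38% in mAC 1, 4.77% in mAC 2 and 3.18% in mAC 3. It was 5.66% in mAC_Mito 1, 2.96% in mAC_Mito 2 and 3.44% in mAC_Mito 3. Library values below are given in the order of replicates 1, 2 and 3.

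The transcripts differed widely in level. On the FPKM scale, which is per kilobase of gene model, 13 of the 51 had a mean of at least 20 over the 6 libraries, 39 at least 5, and 6 less than 2. Cyclin B2 (Ccnb2) was highest with a mean of 37.8 FPKM. It was followed by the ubiquitin-conjugating enzyme Ube2c (32.4), the midzone kinesin Kif20a (32.0), cyclin A2 (Ccna2, 30.9), the spindle assembly factor Tpx2 (28.4) and topoisomerase II alpha (Top2a, 27.1). Ranges of neighbours in this order overlapped: Ccnb2 spanned 34.7 to 42.8 FPKM, Ube2c 24.6 to 42.5 and Kif20a 27.7 to 35.3. The lowest levels were those of citron kinase (Cit, 0.526 FPKM), Sapcd2 (0.950), and the kinesins Kif18a (1.09) and Kif14 (1.195). Partners of 1 complex were not equal in level. The centralspindlin motor Kif23 was at 0.514, 0.498 and 0.513 times the FPKM of its partner Racgap1 in mAC and 0.503, 0.467 and 0.466 times in mAC_Mito. The Aurora A gene Aurka was at 0.644, 0.685 and 0.615 times the FPKM of Tpx2 in mAC and 0.661, 0.685 and 0.604 times in mAC_Mito, so that this ratio overlapped between groups. Ect2 was at 0.787, 0.786 and 0.908 times the FPKM of Racgap1, its dock at the midzone, in mAC and 0.721, 0.720 and 0.732 times in mAC_Mito. This was the 1 ratio of 8 computed whose groups did not overlap, and all 8 pairs were chosen after the values were seen.

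**Figure D2:**
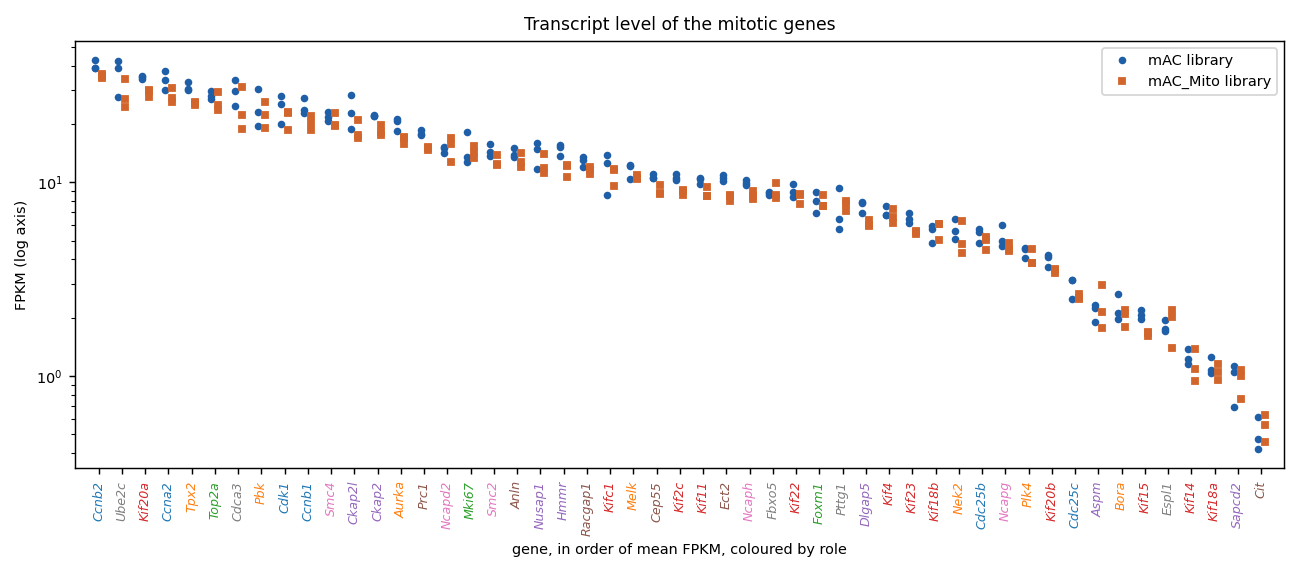
FPKM of the 51 genes in each library on a log axis, in order of their mean, with mAC libraries as circles and mAC_Mito libraries as squares. Levels run from 42.8 FPKM in a library for Ccnb2 down to 0.421 FPKM for Cit.

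Most of the mitotic genes were lower in mAC_Mito than in mAC, by small amounts, and none passed the test. By edgeR's quasi-likelihood test 0 of 51 had an adjusted p under 0.05, where 0.0113% of the 17645 genes tested did and 0.00567% were called lower. All 51 had an adjusted p of 0.99992. DESeq2 and limma on log2(FPKM + 1) also called 0 members. The log2 fold change was below 0 for 44 of 51 members, against 49.6% of all genes. The median was -0.20, a 1.15-fold lower level, against 0.00 for all genes, and the members ran from -0.37 (Ube2c) to 0.08 (Cit). At an unadjusted p under 0.05 there were 14 members lower, against 1.09% of all genes, and 0 higher, against 2.10%. On the scale of log2 CPM, counts divided by TMM-scaled library size, the 3 libraries of mAC_Mito all lay below the 3 of mAC for 18 members, against 4.38% of all genes, and above them for 0 members, against 3.93%. The members are not replicates, and all these counts rest on the same 6 libraries. An earlier analysis of these libraries had already shown mitotic genes, Mki67 among them, lower in mAC_Mito as a list, so these counts are not independent of that result.

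Leaving out single libraries changed how many genes reached an unadjusted p under 0.05 more than how many were below 0. Without mAC_Mito 3 the members at an unadjusted p under 0.05 went from 14 to 4, where 0.749% of all genes were lower at that p. Without mAC_Mito 2 they went to 7, where 1.18% were. The count of members below 0 was 41 to 48 with each library left out in turn, 44 under each other scaling of the counts, and 43 with limma on log2(FPKM + 1) or log2(FPKM + 0.1). Of all counts in a library the 51 genes made up 0.396%, 0.366% and 0.360% for mAC, against 0.333%, 0.329% and 0.316% for mAC_Mito, so that every mAC_Mito library was below every mAC library. The mean of their centred log2 CPM was 0.198, 0.066 and -0.001 in mAC and -0.055, -0.087 and -0.122 in mAC_Mito. The highest of the 6 libraries was mAC 1 for 34 of the 51 genes, and the lowest was mAC_Mito 3 for 19. mAC 1 was also the library with the largest share of mitochondrial counts. Its muscle, adipocyte, and macrophage and leukocyte marker sums were the lowest of the 6 libraries. The part of these in the result was not tested. Without mAC 1, 41 members were below 0 and the median was -0.16.

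**Figure D3:**
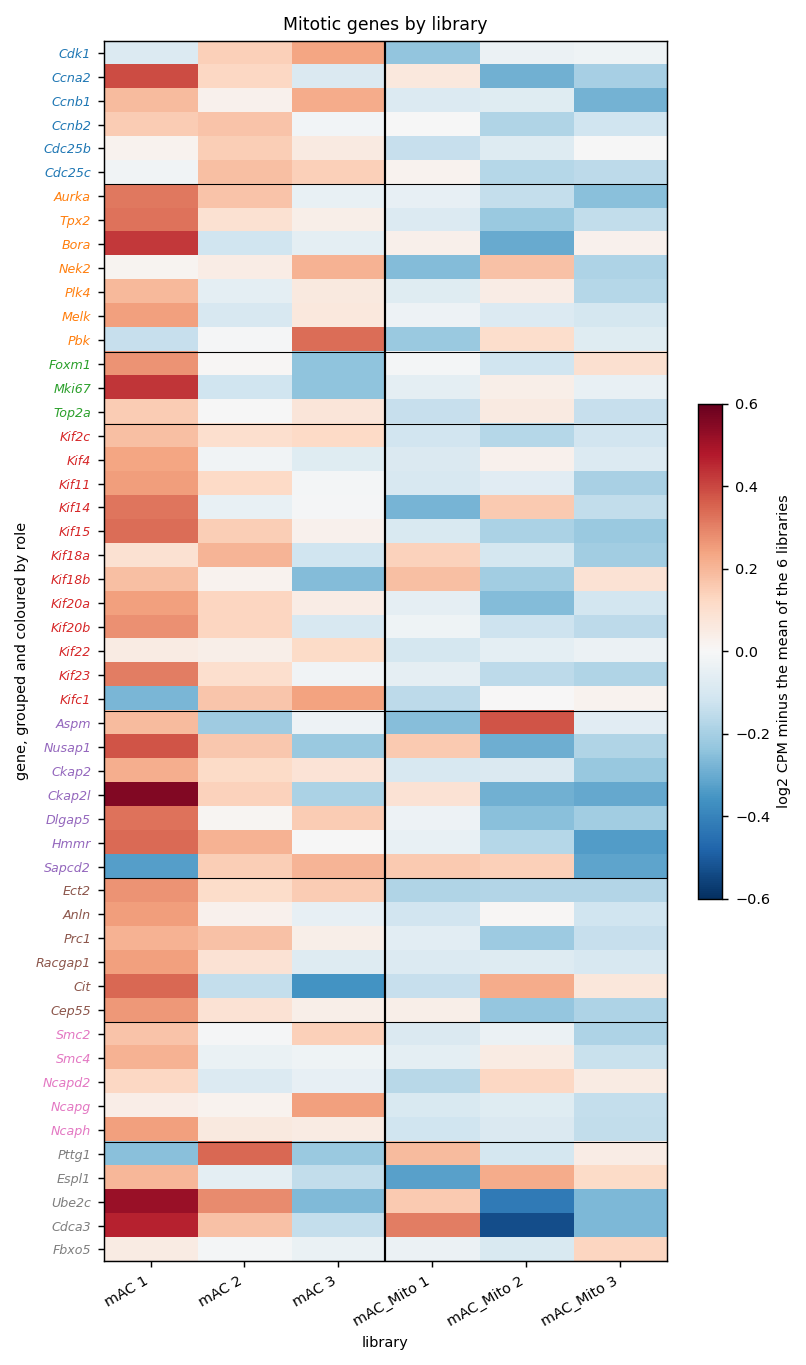
Log2 CPM of each of the 51 genes in each of the 6 libraries, minus the gene's mean over the libraries (red above, blue below), grouped by role. The column of mAC 1 is mostly red, as the highest library for 34 genes, with Cdk1, Pbk, Kifc1, Sapcd2 and Pttg1 among its exceptions, and mAC 3 is mixed.

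CDK1 and its regulators were lower in mAC_Mito for 6 of 6 genes, with a median log2 fold change of -0.20. Cyclin B1 (Ccnb1, ENSMUSG00000041431, chromosome 13, 100778650 to 100786570, minus strand), the partner that carries CDK1 into the nucleus at mitotic entry, was at 124, 111 and 127 CPM in mAC and 103, 104 and 89.4 CPM in mAC_Mito. Its groups did not overlap, and its log2 fold change was -0.29 (95% interval -0.52 to -0.06), the lowest unadjusted p of the role. Cdk1 itself was at 123, 144 and 153 CPM in mAC and 110.3, 127 and 128 CPM in mAC_Mito. Its groups overlapped, because mAC 1 was below mAC_Mito 2 and 3, and the log2 fold change was -0.20 (95% interval -0.45 to 0.05). Cyclin B2 was at 74.3, 75.3 and 66.1 CPM in mAC and 66.8, 59.04 and 61.5 CPM in mAC_Mito. Only mAC 3 and mAC_Mito 1 crossed on this scale, and the log2 fold change was -0.20 (95% interval -0.42 to 0.02). Cdc25b, the phosphatase that starts CDK1 activation at the centrosome, was at 22.5, 24.6 and 23.1 CPM in mAC and 20.2, 21.1 and 22.2 CPM in mAC_Mito. Its groups did not overlap on this scale but the difference was small, at -0.15 (95% interval -0.38 to 0.08), and on the FPKM scale they overlapped. Ccna2 had a log2 fold change of -0.29 and Cdc25c, the phosphatase of the full activation loop, of -0.20, and both overlapped between groups.

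Aurora A and the other kinases were lower for 7 of 7 genes, with a median of -0.17. Tpx2 (ENSMUSG00000027469, chromosome 2, 152847964 to 152895321, plus strand), which activates Aurora A on spindle microtubules, was at 192, 163 and 157 CPM in mAC and 145, 131 and 138 CPM in mAC_Mito. The lowest mAC library lay above the highest mAC_Mito library, and the log2 fold change was -0.31 (95% interval -0.54 to -0.07). Aurka, named after its values were seen, differed by -0.30 (95% interval -0.56 to -0.04), and its groups did not overlap either. The kinase gene Pbk had the highest log2 fold change of the role and was at 43.5, 47.6 and 60.3 CPM in mAC and 41.0, 51.5 and 45.5 CPM in mAC_Mito. It was highest in mAC 3 and overlapped widely, with a log2 fold change of -0.13 (95% interval -0.45 to 0.18). Bora, the Aurora A cofactor that also primes PLK1, had a log2 fold change of -0.18. The values were -0.17 for Nek2, which separates centrosomes, -0.13 for Plk4, which duplicates centrioles, and -0.15 for Melk. The groups overlapped for these 4 genes.

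The transcription factor Foxm1 and the proliferation marker Ki-67 did not differ beyond the spread of the libraries. Foxm1, which drives many G2 and M phase genes, was at 63.6, 53.1 and 44.7 CPM in mAC and 52.4, 48.6 and 56.4 CPM in mAC_Mito. Its log2 fold change was -0.04 (95% interval -0.34 to 0.26), with the extremes mAC 1 and mAC 3 both in the same group. Mki67, whose protein coats mitotic chromosomes, was at 228, 156 and 143 CPM in mAC and 163, 173 and 164 CPM in mAC_Mito. Its log2 fold change was -0.08 (95% interval -0.44 to 0.29), and mAC 1 alone stood above the other 5 libraries. Without mAC 1 both differences were above 0, at 0.10 for Foxm1 and 0.16 for Mki67. Top2a (ENSMUSG00000020914, chromosome 11, 98992943 to 99024189, minus strand), which untangles sister DNA, was at 313, 281 and 296 CPM in mAC and 256, 293 and 256 CPM in mAC_Mito. The groups overlapped through mAC_Mito 2, and the log2 fold change was -0.14 (95% interval -0.37 to 0.08).

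The kinesin motors were lower for 11 of 12 genes, with a median of -0.20. For 6 of them the groups did not overlap, against 4.38% of all genes, and 5 had an unadjusted p under 0.05, against 1.09%. Kif2c (ENSMUSG00000028678, chromosome 4, 117159639 to 117182639, minus strand), a kinesin that takes microtubule ends apart at centromeres, was at 55.7, 52.7 and 53.4 CPM in mAC and 45.3, 43.6 and 45.4 CPM in mAC_Mito. The libraries of each group lay close together, and the log2 fold change was -0.27 (95% interval -0.47 to -0.07). Kif11, the motor that pushes the spindle poles apart, was at 97.9, 89.2 and 81.6 CPM in mAC and 76.8, 78.3 and 71.8 CPM in mAC_Mito. Every mAC_Mito library was below every mAC library, and the log2 fold change was -0.24 (95% interval -0.47 to -0.02). Kif20a, a motor of the central spindle with the highest mean FPKM of the role, was at 189.9, 175 and 165 CPM in mAC and 154, 134 and 148 CPM in mAC_Mito. Its groups were also separate, with a log2 fold change of -0.28 (95% interval -0.51 to -0.06). Its exons overlap those of Cdc23 on the other strand over 1271 of 4338 bases, so its counts depend on whether counting used strand, which is not given in the sources used here. Kif18b, which shortens astral microtubules, was at 26.2, 23.5 and 19.3 CPM in mAC and 26.3, 20.1 and 24.6 CPM in mAC_Mito. It was the kinesin with the highest log2 fold change, 0.04 (95% interval -0.29 to 0.37), and mAC 1 and mAC_Mito 1 were level. Among the others Kif15, which backs up Kif11, differed by -0.34 and Kif23, the motor of centralspindlin, by -0.26, both without overlap. The values were -0.13 for the chromosome arm motor Kif22, without overlap, and -0.10 for Kif4, which works with Prc1 at the midzone. Kif14, Kif18a, Kif20b and Kifc1 gave -0.18, -0.12, -0.21 and -0.11, all with overlap.

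**Figure D4:**
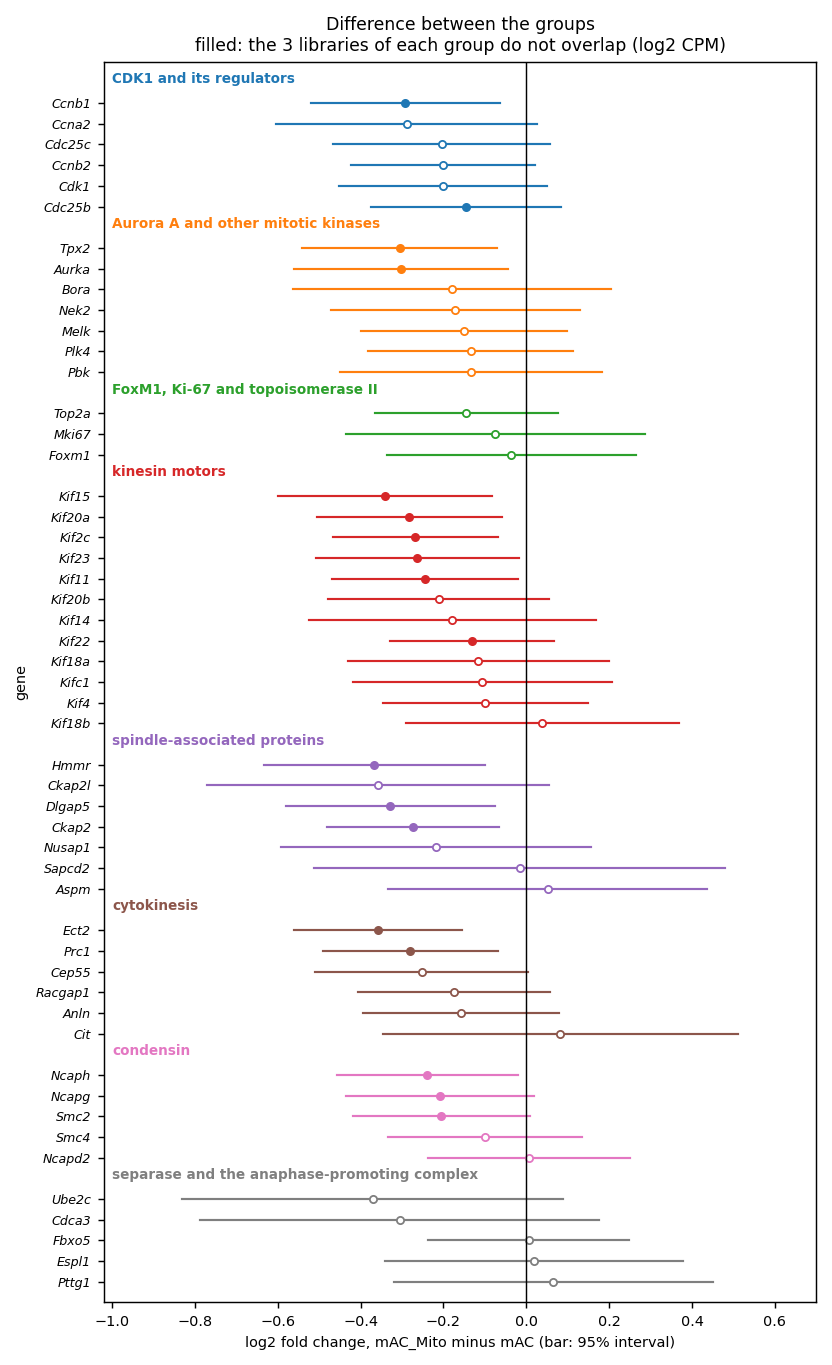
Log2 fold change of each of the 51 genes (mAC_Mito minus mAC, edgeR) with its 95% interval, grouped by role, with filled points where the 3 libraries of each group did not overlap in log2 CPM. Of the 51 points 44 lie left of 0, 14 intervals exclude 0, and the 18 filled points are all left of 0.

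The spindle-associated proteins had the lowest role median, -0.27, with 6 of 7 genes below 0. Hmmr (ENSMUSG00000020330, chromosome 11, 40701395 to 40733422, minus strand), a receptor for hyaluronan that also binds spindle microtubules, was at 104, 95.03 and 82.3 CPM in mAC and 79.9, 73.1 and 65.3 CPM in mAC_Mito. The groups did not overlap, and the log2 fold change was -0.37 (95% interval -0.63 to -0.10), or 1.29-fold lower. Ckap2l, a spindle pole protein with the highest mean FPKM of the role, was at 110.0, 82.4 and 65.7 CPM in mAC and 79.5, 61.3 and 60.6 CPM in mAC_Mito. It was highest in mAC 1 and its groups overlapped, with a log2 fold change of -0.36 (95% interval -0.77 to 0.06). Aspm, which focuses spindle poles, was at 33.6, 25.4 and 28.8 CPM in mAC and 24.6, 38.3 and 28.1 CPM in mAC_Mito. mAC_Mito 2 was its highest library and mAC_Mito 1 its lowest, and the log2 fold change was 0.05 (95% interval -0.33 to 0.44). Dlgap5, which stabilises kinetochore fibres, differed by -0.33 and Ckap2 by -0.27, both without overlap. Nusap1, which bundles microtubules near chromosomes, gave -0.22, and Sapcd2, a regulator of spindle orientation, -0.02, both with overlap.

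Among the cytokinesis genes 5 of 6 were lower, with a median of -0.21. Ect2 (ENSMUSG00000027699, chromosome 3, 27097222 to 27153878, minus strand), the exchange factor that switches on RhoA to form the contractile ring, had the lowest unadjusted p of all 51. It was at 70.8, 63.3 and 65.2 CPM in mAC and 51.8, 51.8 and 51.9 CPM in mAC_Mito. The mAC_Mito libraries were almost equal and all below the lowest mAC library, and the log2 fold change was -0.36 (95% interval -0.56 to -0.15), or 1.28-fold lower. Prc1, the crosslinker of the central spindle, was at 180.2, 176 and 160.0 CPM in mAC and 149, 134 and 142 CPM in mAC_Mito. Its groups did not overlap, with a log2 fold change of -0.28 (95% interval -0.49 to -0.07). Exons of Prc1 overlap those of Rccd1 on the other strand over 911 of 8225 bases. Citron kinase, which organises the midbody, was at 12.6, 9.02 and 7.77 CPM in mAC and 9.04, 11.6 and 10.4 CPM in mAC_Mito. mAC 1 was its highest and mAC 3 its lowest library, and the log2 fold change was 0.08 (95% interval -0.35 to 0.51). Racgap1, the partner of Kif23 that docks Ect2, gave -0.17, the ring scaffold Anln -0.16, and Cep55, which recruits the abscission machinery, -0.25, with overlap on the CPM scale. On the FPKM scale 17 members lay lower without overlap, against 3.54% of all genes. Cep55, Ccnb2 and Kif20b did so on that scale but not in CPM, and Cdc25b, Kif22, Smc2 and Ncapg in CPM but not in FPKM. On both scales 14 members lay lower without overlap, against 2.51% of all genes.

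Of the 5 condensin genes 4 were lower, with a median of -0.20. Ncaph (ENSMUSG00000034906, chromosome 2, 127103809 to 127133954, minus strand), the kleisin that closes the condensin I ring, was at 54.6, 47.9 and 47.6 CPM in mAC and 42.4, 43.3 and 41.5 CPM in mAC_Mito. Its groups did not overlap, and its log2 fold change was -0.24 (95% interval -0.46 to -0.02). Smc4, an ATPase of the ring with the highest mean FPKM of the role, was at 148, 125 and 126 CPM in mAC and 123, 132 and 117 CPM in mAC_Mito. It overlapped through mAC_Mito 2, with a log2 fold change of -0.10 (95% interval -0.33 to 0.13). Ncapd2, a HEAT-repeat subunit of the same complex, was at 118, 102 and 105 CPM in mAC and 96.5, 118 and 112 CPM in mAC_Mito. mAC 1 and mAC_Mito 2 were level and the log2 fold change was 0.01 (95% interval -0.24 to 0.25). The small RNA gene Scarna10 shares 237 exon bases with Ncapd2 on the same strand, so the counts of these 2 genes cannot be told apart there. Smc2, the other ATPase, differed by -0.20 and Ncapg, the other HEAT-repeat subunit, by -0.21, both without overlap on the CPM scale.

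The separase and anaphase-promoting complex group was mixed, with 2 of 5 genes below 0 and a median of 0.01. Ube2c (ENSMUSG00000001403, chromosome 2, 164769898 to 164778822, plus strand) was at 137, 116 and 79.5 CPM in mAC and 107, 71.1 and 79.4 CPM in mAC_Mito. Its log2 fold change, -0.37 (95% interval -0.83 to 0.09), was the lowest of all 51, but its libraries overlapped and its interval included 0. Exons of Ube2c overlap those of Tnnc2, a muscle troponin gene, on the other strand over 592 of 2600 bases. Cdca3, a trigger of mitotic entry named after its values were seen, was at 119.9, 98.3 and 79.0 CPM in mAC and 108, 60.3 and 72.2 CPM in mAC_Mito, with -0.31 (95% interval -0.79 to 0.18). Both were highest in mAC 1 and lowest in mAC_Mito 2, as was the share of mitochondrial counts given above, whose part in these differences was not tested. Securin (Pttg1), the inhibitor of separase, was at 14.3, 21.5 and 14.5 CPM in mAC and 19.4, 15.8 and 17.5 CPM in mAC_Mito. mAC 2 was its highest library and mAC 1 its lowest, with a log2 fold change of 0.06 (95% interval -0.32 to 0.45). Separase itself (Espl1) gave 0.02 and Fbxo5, which inhibits the anaphase-promoting complex until mitosis, 0.01, both with overlap.

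Fold changes were also read against the promoter elements, as a description. Members with a CHR element near the start had a median log2 fold change of -0.20 over 28 genes, and the 14 members with a promoter but no such element -0.16. Below 0 were 85.7% and 78.6% of them, and 39.3% and 28.6% lay lower without overlap. At an unadjusted p under 0.05 the order was the other way, with 25% and 28.6% lower. The windows of Plk4, Sapcd2, Cit, Pttg1, Kif2c and Kif14, without such an element, and of Kif4 and Cdca3, with it, miss the start in the deposited table. Outside the list, 774 tested genes had a CHR element near the start. Of these 55.4% were below 0, 8.01% lay lower in mAC_Mito without overlap and 3.1% were lower at an unadjusted p under 0.05. Their median was -0.02. Among 11095 other tested genes with a promoter and no such element the values were 47.9%, 3.95%, 0.766% and 0.01. The 774 genes include kinetochore and replication genes, such as Bub1 and Cdc45, the latter named after its values were seen.

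The rest of the mitotic pathway was measured with lists of other genes. None of these genes passed an adjusted p of 0.05 in edgeR's test. Over all genes tested 49.6% were below 0, 4.38% lay lower without overlap and 1.09% were lower at an unadjusted p under 0.05. Of 25 kinetochore and spindle checkpoint genes 24 were below 0 and 12 lay lower without overlap, with a median of -0.21 and 8 at an unadjusted p under 0.05. Bub1, a checkpoint kinase, was at 47.6, 44.3 and 46.1 CPM in mAC and 38.2, 36.4 and 33.4 CPM in mAC_Mito, with a log2 fold change of -0.35 (95% interval -0.57 to -0.14). Of 12 brakes and switches of mitotic entry 10 were below 0, with a median of -0.12. Mastl, the Greatwall kinase that restrains the phosphatase opposing CDK1, was at 27.9, 28.6 and 25.7 CPM in mAC and 23.6, 23.9 and 21.9 CPM in mAC_Mito and did not overlap, with a log2 fold change of -0.25 (95% interval -0.48 to -0.01). Of 31 DNA replication and S phase genes 26 were below 0 and 12 lay lower without overlap, with a median of -0.11 and 4 at an unadjusted p under 0.05. Cyclin E1 (Ccne1), which starts S phase, had the lowest unadjusted p of them, with a log2 fold change of -0.34 (95% interval -0.58 to -0.11).

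Other lists had medians nearer 0, and their counts stand beside the same 49.6% of all genes below 0 and 4.38% lower without overlap. All 12 other condensin and cohesin genes were below 0, with a median of -0.07 and 0 without overlap. Of 16 subunits and cofactors of the anaphase-promoting complex 11 were below 0, with a median of -0.08 and 4 lower without overlap. Of 15 B-Myb, MuvB, DREAM and E2F factors 9 were below 0, with a median of -0.05. Without overlap 1 lay lower and 1 higher, where 3.93% of all genes lay higher. Of 16 growth arrest and p53 target genes 12 were above 0, with a median of 0.05, and 0 lay without overlap in either direction. Differences between these lists and the 51 genes were not tested.

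**Figure D5:**
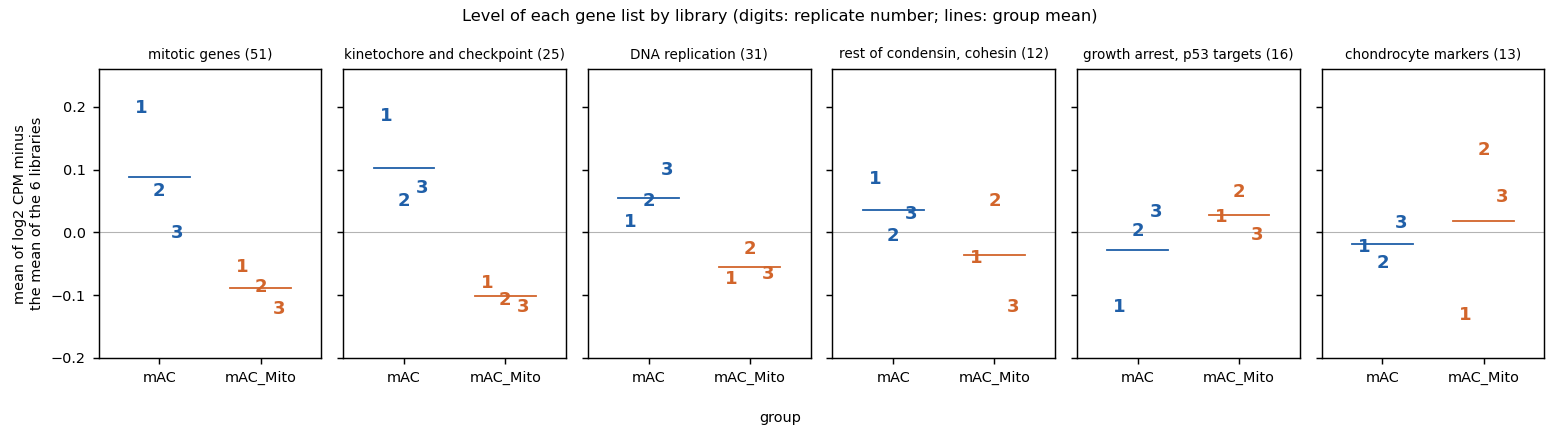
Mean over each gene list of log2 CPM minus the gene's mean over the 6 libraries, with each digit a library (its replicate number) and each line the mean of 3 libraries, mAC in blue and mAC_Mito in orange. For the mitotic, kinetochore and replication lists every mAC_Mito digit lies below every mAC digit, and for the other 3 lists the groups overlap.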

How the data were processed

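RNA of 6 chondrocyte libraries was sequenced as poly(A)-selected, paired-end reads, per the labels' protocols. The authors deposited raw read counts per gene and FPKM in 1 table, per the file headers. Tools named without a role in the submitters' processing notes are Bowtie 0.12.2, HISAT2 2.0 and StringTie 1.3.0, with the build mm8, which the coordinates do not follow. How reads were counted, and whether by strand, is not given in these sources. The table gave 48 of the 51 members the same chromosome, start and end as GENCODE M21 on GRCm38, and 16 share exon bases with another gene there.

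Counts were compared between groups with edgeR 4.0.16 (R 4.3.3): filterByExpr (minimum count 10, minimum total 15), TMM, glmQLFit and glmQLFTest, two-sided, with Benjamini-Hochberg adjustment over 17645 genes and a threshold of 0.05. Intervals of 95% come from the F statistic. CPM is scaled by TMM, and log2 CPM has a prior count of 2. The method was tested on simulated data. Members, roles and lists were chosen with earlier results of these data known. The genes named with values in every library are, in each role, those with the lowest unadjusted p, the highest mean FPKM and the highest log2 fold change, and always Cdk1, Ccnb1, Foxm1, Mki67 and Kif11; from each list the gene with the lowest unadjusted p could be named. Alternatives were other scalings and filters, DESeq2 1.42.0, limma 3.58.1 on log2(FPKM + 1) and log2(FPKM + 0.1), a replicate term, and leaving out each library. Protein motifs listed in the design were not analysed here.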

Additional observations from a re-analysis of the deposited data

How the results depend on the processing

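Under all 15 alternatives 0 members were called, and the median log2 fold change of the members stayed below 0 (-0.22 to -0.14). The counts of members below 0 and of members without overlap stayed within 1.5 times. The share of all genes lower without overlap did not. It was 4.38% in the main fit and 6.85% to 12.2% with a library left out, where fewer libraries had to separate. The count of all genes called, 2, was 0 without a filter on low counts and when 3 or more libraries had to reach 5 FPKM (39 members tested), 4 with DESeq2 and 1 with limma on log2(FPKM + 1). With each library left out it ran from 0 to 4. The members lower at an unadjusted p under 0.05 then ran from 4 to 21, where 0.749% to 2.47% of all genes were lower at that p. Same-numbered libraries of the 2 groups had deviations from their group means correlated at 0.124, -0.06 and -0.012 across genes. Differently numbered libraries of the 2 groups ran from -0.14 to 0.154. With group means over only 3 libraries, these values do not settle whether the numbers pair the samples. With the replicate block 17 members were lower at an unadjusted p under 0.05, against 1.12% of all genes. With it 0 members were called, and 2 genes were called in all. Of 358 values of the 24 named genes 17 changed sign, all of them with a library left out and none past the threshold. Leaving out 1 library at a time, Foxm1 ran from -0.15 to 0.10 (0.016 without mAC_Mito 2), Mki67 from -0.20 to 0.16, Pbk from -0.23 to 0.014, Kif18b from -0.072 to 0.15 (-0.049 without mAC_Mito 1), Aspm from -0.15 to 0.175 (-0.048 without mAC 2), Cit from -0.061 to 0.31 (-0.0080 without mAC_Mito 2), Ncapd2 from -0.056 to 0.080 (-0.040, -0.018 and -0.015 without mAC 2, mAC 3 and mAC_Mito 3) and Pttg1 from -0.036 to 0.28 (-0.030 without mAC 3, -0.017 without mAC_Mito 1). The causes were not tested. Members had at least 173 counts in each library, and the median 95% interval of a member reached 0.25 to either side on the log2 scale.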
